A study of Mus musculus with 6 samples.

Results

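DNA methylation genes form a set of 9 listed enzymes and partners: the methyltransferase genes Dnmt1, Dnmt3a, Dnmt3b and Dnmt3l, the maintenance factor gene Uhrf1, the dioxygenase genes Tet1, Tet2 and Tet3, and the glycosylase gene Tdg. They were found by symbol in the platform annotation, and each gene was read from the transcript cluster, a group of array probes for 1 locus, with the highest mean over the 6 arrays. Of the 9, 7 had a cluster of their own among the 18997 genes tested. Tet1 and Tdg were listed only in clusters that also list another gene, BB001228 or the pseudogene Tdg-ps, so the values of those clusters cannot be assigned to 1 gene. The rule uses no measured value, but the genes were proposed with earlier results of these data known.

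RNA was measured on 6 Affymetrix exon arrays, 1 array and 1 culture per clone, from undifferentiated and untreated mouse mesenchymal stem cell lines. The Dicer-null group, labelled Dicer-/-, held clones 6.8 and 6.9 from line 6 with clones 12.2 and 12.4 from line 12 (n = 4), and the Dicer-carrying group, labelled Dicer+/+, held their parents, clones 6 and 12 (n = 2). All cells descend from the hindlimb marrow of a single floxed-Dicer animal aged 1 year and all carry retroviral SV40 large T antigen, which immortalises cells. The null clones were also exposed to an adenovirus with Cre and GFP, sorted for GFP and cloned a second time, so these steps and the loss of Dicer, the ribonuclease that makes mature microRNAs, cannot be told apart. Values for single arrays are listed as 6.8, 6.9, 12.2, 12.4 within the null group and as 6, 12 within the Dicer-carrying group. Sibling null clones share 1 parental array. The array titled 6.9 carries the cell type label of clone 6.8, and its title was followed. The targeted gene, Dicer1, had log2 levels of 4.66, 4.43, 4.47 and 4.64 in the null clones, against 4.48 and 4.83 in the Dicer-carrying clones. Its mean difference was -0.10 ± 0.14, and the groups overlapped. Which probes of its cluster lie in the deleted part was not examined here, so this level is not used as a check of the labels, whose protocols report PCR genotyping of the deletion. Of 9 measured mesenchymal stromal markers 7 had a mean log2 level above 4. None of 8 haematopoietic, 7 endothelial and 9 pluripotent or germ cell markers did.

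Methylation of cytosine at CG dinucleotides is written in 2 ways. Dnmt3a and Dnmt3b place it on unmethylated DNA, with Dnmt3l as a cofactor that has no catalytic activity of its own, whereas Dnmt1, guided by Uhrf1 to newly replicated DNA, copies it at each cell division. TET enzymes oxidise methylcytosine, and thymine DNA glycosylase, the product of Tdg, cuts out the oxidised base for repair. Several of these genes are reported microRNA targets, which is why they are of interest in cells without Dicer. MicroRNAs of the miR-29 family are reported to repress DNMT3A and DNMT3B in human cells, and also TET genes and TDG. The human DNMT1 gene is a reported target of miR-148a and miR-152. In mouse embryonic stem cells without Dicer, loss of the miR-290 cluster was reported to lower Dnmt3a and Dnmt3b through Rbl2, a pocket protein that represses transcription. MicroRNA levels were not measured on these arrays.

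The mature microRNAs of these reports are shown with their seeds, bases 2 to 8 in capitals, the part that pairs with a target. Sequences are from RefSeq for build GRCm38.p6, 5′ to 3′.
mmu-miR-29a-3p: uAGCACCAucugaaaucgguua
mmu-miR-29b-3p: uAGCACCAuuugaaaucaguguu
mmu-miR-29c-3p: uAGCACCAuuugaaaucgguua
mmu-miR-148a-3p: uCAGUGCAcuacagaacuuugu
mmu-miR-148b-3p: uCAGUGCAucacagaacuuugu
mmu-miR-152-3p: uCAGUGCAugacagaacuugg
mmu-miR-291a-3p: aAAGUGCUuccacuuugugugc
mmu-miR-294-3p: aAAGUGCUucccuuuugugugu
mmu-miR-295-3p: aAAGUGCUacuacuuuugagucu
The 3 miR-29 members share the seed AGCACCA, the 3 members of the miR-148 and miR-152 group share CAGUGCA, and the 3 shown from the miR-290 cluster share AAGUGCU. Among 1679 mature mouse microRNAs in the table, 3, 3 and 5 have these seeds in that order. Target sites in the transcripts of the 9 genes were not analysed here.

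The maintenance genes come first. Dnmt1, on chromosome 9, had log2 levels of 9.09, 9.24, 9.44 and 9.73 in the null clones, against 9.59 and 10.11 in the Dicer-carrying clones. Each null clone was below its own parent, but the groups overlapped, because clone 12.4 was above clone 6. Relative to the own parent, Dnmt1 differed by -0.68 and -0.38 in line 12 and by -0.49 and -0.34 in line 6. The mean difference was -0.47 ± 0.13 (SE of the fit), with a 95% interval of -0.81 to -0.14. The adjusted p was 0.223 in limma, which fitted Dicer loss with the parental line as a block and adjusted by Benjamini-Hochberg over all 18997 genes, against a threshold of 0.05. Expressed genes of chromosome 9 as a whole had a median change of -0.47 relative to all expressed genes. In RNA from a whole culture, fewer expressing cells and less RNA per cell cannot be told apart. Uhrf1, on chromosome 17, had levels of 10.44, 10.44, 10.26 and 9.91 in the null clones, against 10.44 and 10.56 in the Dicer-carrying clones. Both line 12 null clones sat below their parent, and the line 6 null clones sat at the level of theirs. The mean difference of Uhrf1 was -0.24 ± 0.17, the interval ran from -0.69 to 0.21, and limma gave an adjusted p of 0.682.

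The de novo methyltransferase genes were higher in all 4 null clones, without passing the threshold. Dnmt3b, on chromosome 2, had levels of 4.23, 4.21, 4.94 and 4.77 in the null clones, against 3.52 and 3.57 in the Dicer-carrying clones. All 4 null arrays lay above both Dicer-carrying arrays, and the parents were nearly alike. Both parents lay below 4 and below the median gene mean of 3.71. At such levels a low signal and the array floor cannot be told apart, which limits the fold change and the small spread of the parents. The group levels were 4.54 ± 0.37 (SD, n = 4) in null clones and 3.55 ± 0.04 (SD, n = 2) in Dicer-carrying clones. The difference was 0.99 ± 0.17, or 1.99-fold, with an interval of 0.55 to 1.43. Its unadjusted p was 0.00229 and its adjusted p 0.101 in limma, the lowest among the 7 genes. Over 16 alternative settings the change of Dnmt3b stayed between 0.70 and 1.28, and its lowest adjusted p in limma was 0.076. Settings that change only the block, the moderation or the genes tested return the same size by construction. So does the mean of all clusters, as Dnmt3b has 1 cluster.

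Dnmt3a, on chromosome 12, had levels of 5.53, 6.28, 5.10 and 5.18 in the null clones, against 4.56 and 4.82 in the Dicer-carrying clones. The groups did not overlap, and clone 6.9 was the highest array. Its differences were 0.28 and 0.36 in the line 12 clones and 0.96 and 1.71 in the line 6 clones. The order between lines was thus the opposite of that of Dnmt3b, which had 1.37 and 1.20 in line 12 and 0.71 and 0.69 in line 6. The mean difference of Dnmt3a was 0.83 ± 0.33, with an interval of -0.02 to 1.68, and limma gave an adjusted p of 0.377. Without clone 6 the change of Dnmt3a was 0.32, without clone 12 it was 1.34, and neither passed. Dnmt3l, the cofactor gene on chromosome 10, had levels of 2.97, 3.12, 2.82 and 2.66 in the null clones, against 3.06 and 2.93 in the Dicer-carrying clones. All 6 values lay below 4, and the groups overlapped. Its mean difference was -0.11 ± 0.12 (limma adjusted p of 0.828).

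**Figure D1:**
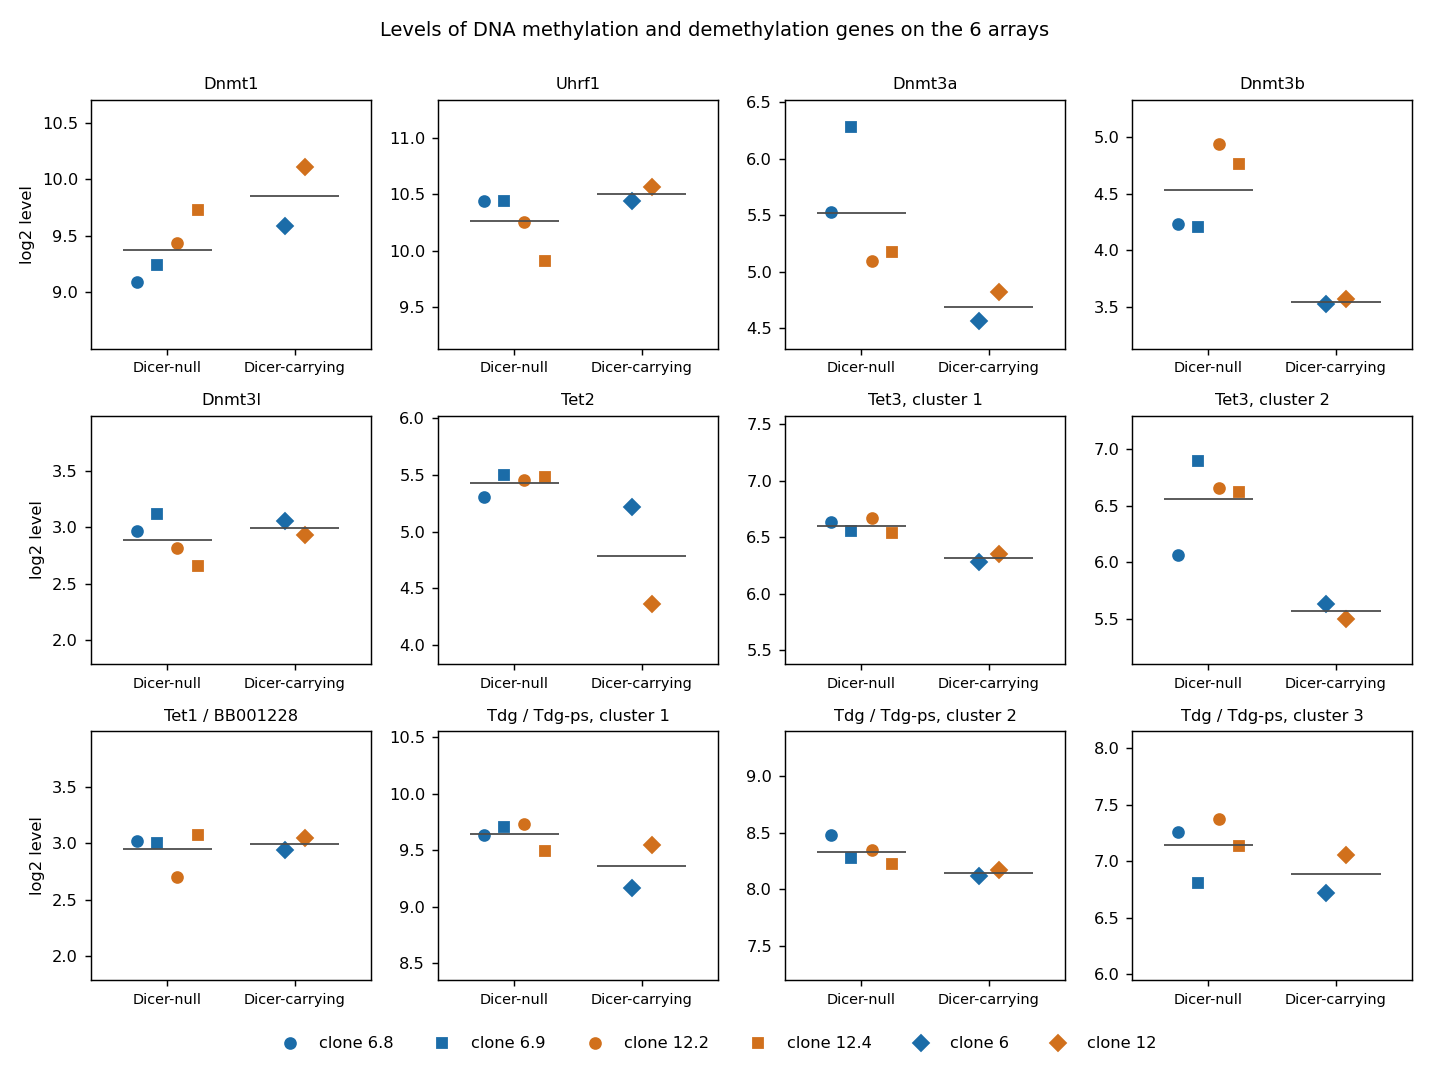
Log2 level (vertical axes, each spanning 2.2 units) of every transcript cluster listed with one of the 9 genes, in the 4 Dicer-null clones (left) and the 2 Dicer-carrying clones (right), with 1 point per array and a line at the group mean. All null arrays lie above both Dicer-carrying arrays for Dnmt3a, Dnmt3b, Tet2, both clusters of Tet3 and cluster 2 of Tdg and Tdg-ps. The groups overlap for Dnmt1, Uhrf1, Dnmt3l, the Tet1 cluster and the other Tdg and Tdg-ps clusters.

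Among the demethylation genes, Tet2, on chromosome 3, had levels of 5.30, 5.50, 5.46 and 5.48 in the null clones, against 5.22 and 4.36 in the Dicer-carrying clones. The 4 null clones were close together and the parents were apart, with clone 12 the lowest array. The differences from the own parent were therefore 1.10 and 1.12 in line 12, and 0.08 and 0.28 in line 6. The mean difference was 0.65 ± 0.24, with an interval of 0.03 to 1.26, and limma gave an adjusted p of 0.344. Without clone 12 the change of Tet2 was 0.18, and without clone 6 it was 1.11.

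Tet3, on chromosome 6, was covered by 2 clusters. The brighter had levels of 6.64, 6.56, 6.67 and 6.53 in the null clones, against 6.28 and 6.36 in the Dicer-carrying clones. Every null array was above both parents by a small margin. Its difference was 0.28 ± 0.10, or 1.22-fold (limma adjusted p of 0.324). The dimmer cluster had levels of 6.06, 6.90, 6.65 and 6.62 in the null clones, against 5.63 and 5.50 in the Dicer-carrying clones. It moved the same way by more, with a difference of 0.99 ± 0.26, and limma gave an adjusted p of 0.373 when every cluster of the table was tested, an analysis added after the data were seen. With the mean of both clusters the change of Tet3 was 0.64 and its adjusted p 0.151 in limma. The clusters of Tet3 therefore agree in direction and differ in size.

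The cluster listed with both Tet1 and BB001228 had levels between 2.70 and 3.08 in the null clones, against 2.94 and 3.05 in the Dicer-carrying clones. The groups overlapped, and the difference was -0.04 ± 0.15. The cluster listed with Tdg and Tdg-ps that had the highest mean showed 9.63, 9.70, 9.73 and 9.49 in the null clones, against 9.17 and 9.55 in the Dicer-carrying clones. The differences of the 3 Tdg and Tdg-ps clusters were 0.28 ± 0.16, 0.19 ± 0.12 and 0.25 ± 0.18. All 3 were above 0 in the mean, and 1 of the 12 values per clone was below 0, that of the brightest cluster in clone 12.4 at -0.06. In the second brightest cluster the null arrays, at 8.22 to 8.48, all lay above the Dicer-carrying arrays, at 8.12 and 8.17. The groups overlapped in the other Tdg and Tdg-ps clusters. Tested with every cluster, the 4 clusters had adjusted p of 0.745 to 0.986 in limma.

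**Figure D2:**
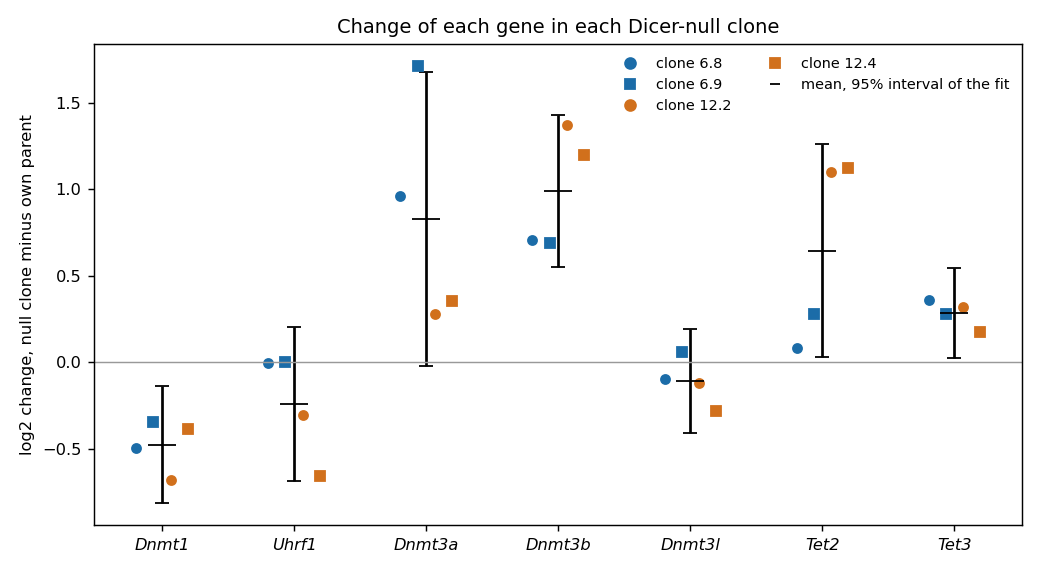
Log2 change of each gene (horizontal axis) in each Dicer-null clone relative to its own parent, with colour for the parental line. The bar is the mean with its 95% interval from the fit. Dnmt3b has all 4 points between 0.69 and 1.37, Dnmt3a has its larger values in line 6, and Tet2 has its larger values in line 12.

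Read as a group, 0 of the 7 genes passed the threshold in limma, where 0.59% of all genes tested did, 0.163% higher and 0.426% lower. At an unadjusted p under 0.05 in limma, Dnmt3b, Tet2 and Tet3 were higher and Dnmt1 was lower. That is 3 and 1 of 7, against 5.82% and 7.9% of all genes in those directions. Among genes with a mean above 4, as 6 of the 7 have, the share was 11.6% in each direction. Dnmt3b, with a mean of 4.21, is among the 6 only through its null clones, as both Dicer-carrying arrays lay below 4. For Dnmt3b the shares of that class are therefore not a like background. These unadjusted calls varied with the setting: over 16 alternatives Dnmt3b stayed under 0.05 in 16, Dnmt1 in 9, Tet2 in 8 and Tet3 in 6. The alternatives share arrays and often the same estimate, so these counts are not counts of independent checks. The run that leaves out the dimmest genes holds Dnmt3b only through its null clones. For Dnmt1 the unadjusted p in limma was 0.0889 without the parental block and 0.799 with arrays centred on the chromosome. Dnmt3a, Dnmt3b, Tet2 and Tet3 were above their own parent in all 4 null clones, 4 of 7, where 13.1% of all genes and 20% of those with a mean above 4 were. Dnmt1 was below it in all 4, as were 18.9% of all genes and 21.4% of those with a mean above 4. All 4 null arrays exceeded both Dicer-carrying arrays for the same 4 genes, against 9.44% of all genes and 15.1% of genes with a mean above 4. The median change of the 7 was 0.28, and that of all genes -0.02. Because the genes were proposed with earlier results known, these shares are a description. In a simulation with the spread of these arrays, the fit recovered 13 of 50 randomly picked genes changed by 1 log2 unit. A miss at that size does not show that a gene stayed the same. The share is over genes of any spread, with no line effect simulated, so it is not the recovery for Dnmt3b itself.

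The change of each gene was set beside that of the other genes on its chromosome. Expressed genes were those with a mean level above 6. Dnmt3a, Dnmt3b, Dnmt3l and Tet2 have lower means, so they are set beside brighter genes, whose spread may differ. By clone, the chromosome 9 medians were -0.46, -0.51, -0.61 and -0.29, beside -0.49, -0.34, -0.68 and -0.38 for Dnmt1 in the same clones. The sizes were alike, but the clones did not take the same order, since clone 6.9 had the smallest drop of Dnmt1. Of 256 other expressed genes on chromosome 9, 129 had a lower change than Dnmt1. In a separate step each array was centred on the median level of expressed genes on the chromosome. This is not the same as subtracting the median change given here, so the sizes need not match. After this centring Dnmt1 had a change of 0.04 ± 0.16 (limma adjusted p of 0.948). Chromosome 12 had medians of 0.53, 0.62, 0.39 and 0.27 in the 4 null clones, beside 0.96, 1.71, 0.28 and 0.36 for Dnmt3a. Dnmt3a was thus near the median in line 12 and well above it in line 6. Of 138 expressed genes on that chromosome 110 had a lower change than Dnmt3a. After centring the change of Dnmt3a was 0.32 ± 0.33 (limma adjusted p of 0.757). For Dnmt3b, chromosome 2 had a median of 0.06, and 427 of 451 expressed genes there had a lower change. After centring Dnmt3b had 0.92 ± 0.16 (limma adjusted p of 0.076). Tet2 had 0.47 ± 0.21 and Tet3 0.25 ± 0.14 after centring. Chromosome copy number was not measured here.

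**Figure D3:**
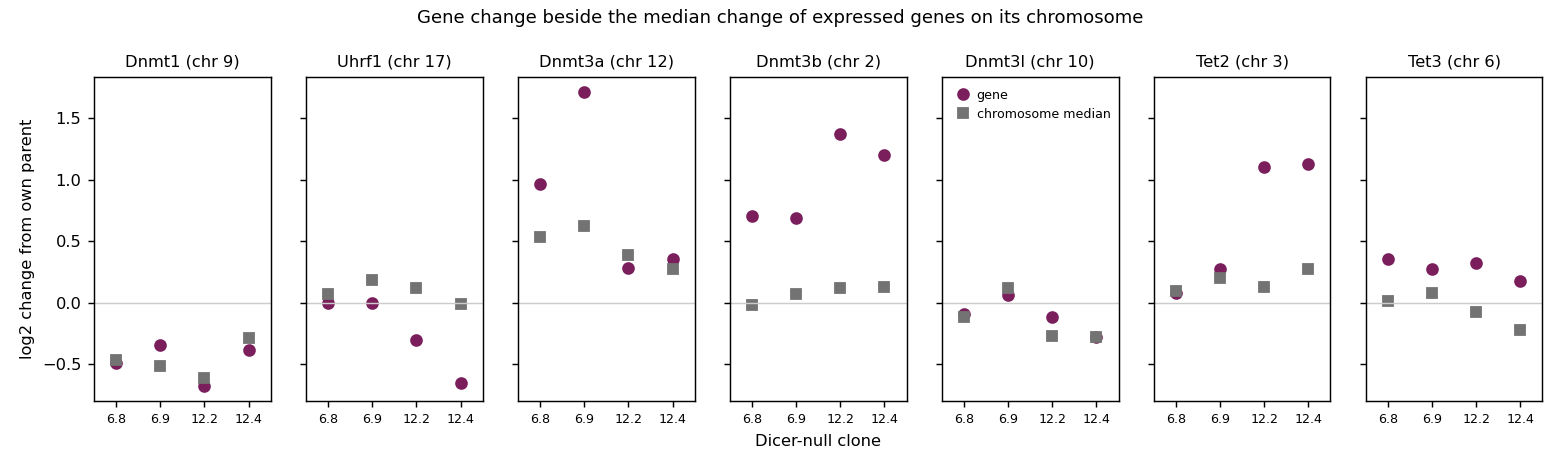
Log2 change from the own parent (vertical axis) in each of the 4 Dicer-null clones, for each gene (circles) and for the median of expressed genes on its chromosome relative to all expressed genes (squares). Dnmt1, at -0.34 to -0.68, lies in the range of the chromosome 9 medians of -0.29 to -0.61 or just below it, whereas Dnmt3b lies at 0.69 or above while the chromosome 2 medians stay at or below 0.13.

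The genes whose levels over the 6 arrays were most like those of each brighter member were listed by Pearson correlation among 3677 genes with a mean above 6 and an SD of at least 0.3. For Dnmt1 they were Limd1 at 0.99, Stt3a at 0.99 and Scap at 0.98, all 3 of them on chromosome 9, which held 6.2% of the genes searched. For Uhrf1 they were Cobll1 at 0.99, Mettl26 at 0.98 and Col1a1, a collagen chain, at 0.97. For the brighter cluster of Tet3 they were Fblim1, Otud4 and Tmem63b, at 0.99 each. These correlations describe 6 arrays that share 2 lines, and the highest values among so many genes lie near 1 whatever the genes.

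The lines were then set against each other. The contrast of line 12 minus line 6 in the change was 0.93 ± 0.23 for Tet2, with an unadjusted p of 0.0189 (limma adjusted p of 1). It was 0.59 ± 0.22 for Dnmt3b, -1.02 ± 0.52 for Dnmt3a and -0.48 ± 0.30 for Uhrf1, each with an adjusted p of 1 in limma. With arrays centred on the chromosome, it was 0.60 for Tet2 (unadjusted p of 0.151), 0.29 for Dnmt3b and -0.83 for Uhrf1 (unadjusted p of 0.0484), and no gene of the 7 passed after adjustment in limma. In all, 0 of 18997 genes passed this contrast in limma, and 3% had an unadjusted p under 0.05. With 1 Dicer-carrying array per line, the values for Tet2 turn on the level of clone 12 alone, and the contrast cannot show that the lines respond alike.

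Promoters are shown for the maintenance pair and for the de novo pair, whose genes were both higher in every null clone. Windows run from 250 bases before to 50 after an annotated gene start, and RefSeq listed 16 windows for the 9 genes on GRCm38.p6. Each was searched on both strands for TTTCGCGC or TTTGGCGC, letters that E2F factors of the cell cycle are known to bind, and for the GC box GGGCGG. For each gene the window with most matches is printed in the direction of the gene, with the E2F letters in capitals for Dnmt1 and Uhrf1 and the GC boxes in capitals for Dnmt3a and Dnmt3b.
Dnmt1, chr9:20952574-20952873, minus strand: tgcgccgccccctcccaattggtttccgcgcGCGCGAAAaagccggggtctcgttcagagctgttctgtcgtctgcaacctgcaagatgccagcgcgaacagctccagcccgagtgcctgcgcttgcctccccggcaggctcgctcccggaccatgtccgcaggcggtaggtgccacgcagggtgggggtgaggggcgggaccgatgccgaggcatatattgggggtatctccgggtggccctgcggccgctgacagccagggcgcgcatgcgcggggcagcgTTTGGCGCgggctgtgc
Uhrf1, chr17:56304063-56304362, plus strand: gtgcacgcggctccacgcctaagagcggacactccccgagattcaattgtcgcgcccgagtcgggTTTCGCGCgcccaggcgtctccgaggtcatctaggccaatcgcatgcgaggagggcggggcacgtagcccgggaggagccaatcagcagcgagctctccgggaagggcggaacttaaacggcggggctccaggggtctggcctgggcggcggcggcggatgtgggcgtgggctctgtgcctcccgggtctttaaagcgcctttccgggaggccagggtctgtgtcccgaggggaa
Dnmt3a, chr12:3806910-3807209, plus strand: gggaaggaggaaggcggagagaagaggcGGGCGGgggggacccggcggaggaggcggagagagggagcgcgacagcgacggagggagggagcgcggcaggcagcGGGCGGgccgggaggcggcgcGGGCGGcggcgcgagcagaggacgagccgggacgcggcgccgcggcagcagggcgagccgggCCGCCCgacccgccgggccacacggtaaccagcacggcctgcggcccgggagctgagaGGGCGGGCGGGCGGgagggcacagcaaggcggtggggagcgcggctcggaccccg
Dnmt3b, chr2:153649199-153649498, plus strand: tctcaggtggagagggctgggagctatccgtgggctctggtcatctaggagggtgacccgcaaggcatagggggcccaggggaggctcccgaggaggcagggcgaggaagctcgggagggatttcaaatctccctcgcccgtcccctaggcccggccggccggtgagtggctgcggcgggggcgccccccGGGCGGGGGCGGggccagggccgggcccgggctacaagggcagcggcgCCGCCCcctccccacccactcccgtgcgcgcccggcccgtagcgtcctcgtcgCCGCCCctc
The E2F letters occurred in 2 of the 16 windows, 2 times in that of Dnmt1 and 1 time in that of Uhrf1, whereas 0.813% of all 32851 mouse windows hold them. No window of the other 7 genes had them, and none of these matches overlapped a GC box. GC boxes occurred in 12 of the 16, against 35.7% of all windows, with 7 in the printed Dnmt3a window, 3 of which overlap one another, and 4 in that of Dnmt3b. The printed windows held 33, 33, 47 and 30 CG dinucleotides for Dnmt1, Uhrf1, Dnmt3a and Dnmt3b, and the Tet2 window held 57, where the median window has 7. The 3 Dnmt3l windows held 3 to 6. Binding and methylation at these windows were not measured here.

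Partners of the methyltransferases made up the first related list. Of 13 measured genes 0 passed in limma, and the median change was 0.11. Setdb1, a histone H3 lysine 9 methyltransferase, had a mean level of 7.82 in null and 7.30 in Dicer-carrying clones, a difference of 0.52 ± 0.13. Trim28, the corepressor that brings Setdb1 to DNA, had a difference of 0.33 ± 0.11. Nsd2, which writes the H3 lysine 36 methylation that Dnmt3a reads, had one of -0.34 ± 0.12. Their adjusted p in limma were 0.201, 0.289 and 0.332. These 3 were named for their size, and none changed sign between null clones. Of the 13 genes, 3 were higher and 1 lower than the own parent in all 4 null clones. The shares were 13.1% and 18.9% of all genes, and 20% and 21.4% of those with a mean above 4. Of 7 genes in the list of methyl-CpG readers and their relatives 0 passed, with a median of 0.05. The largest difference was that of Mbd6 at 0.64 ± 0.32, with Mbd1 at 0.45 ± 0.31 and the glycosylase Mbd4 at -0.37 ± 0.17. Not every gene of this list need bind methylated DNA, and binding was not measured.

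Repair and deaminase genes that act after TET oxidation had a median of 0.04, and 0 of 15 passed in limma. The largest values belonged to the Gadd45 stress genes, reported helpers of demethylation. Gadd45b had mean levels of 6.73 in null and 8.19 in Dicer-carrying clones, a difference of -1.45 ± 0.54. Gadd45g had a difference of -1.02 ± 0.32 and Gadd45a one of 0.97 ± 0.49, so the 3 paralogues did not share a direction. Gadd45b and Gadd45g were lower than the own parent in all 4 null clones, and Gadd45a was higher in 3 of 4. Over the 15 genes, 2 were higher and 4 lower in all 4 null clones. The shares were 13.1% and 18.9% of all genes, and 20% and 21.4% of those with a mean above 4. The limma results of the 3 Gadd45 genes follow in the order Gadd45b, Gadd45g and Gadd45a. Their adjusted p in limma were 0.352, 0.277 and 0.515. Of 7 CXXC and TET cofactor genes 0 passed, with a median of -0.07. Cxxc5, a reported regulator of Tet2, had 0.61 ± 0.33, Dcaf1 -0.50 ± 0.23 and the 2-oxoglutarate producer Idh1 -0.39 ± 0.56. Genes of the methionine, S-adenosylmethionine and folate cycles, which supply the methyl group, had a median of 0.06 with 0 of 14 past the threshold. Mthfd1 had 0.49 ± 0.21, the methionine synthase Mtr 0.45 ± 0.29 and Shmt2 0.27 ± 0.41.

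Rbl2, the pocket protein of the embryonic stem cell model, had log2 levels of 6.61, 5.62, 6.02 and 6.53 in the null clones, against 6.32 and 6.20 in the Dicer-carrying clones. The groups overlapped, with null arrays on both sides of the parents, and the difference was -0.07 ± 0.33. This gene was named for its role in that model, outside the rule for naming genes and after its value was seen. In its list of Rb family and E2F genes 0 of 9 passed in limma, with a median of 0.10. E2f6, a repressor reported to bring Dnmt3b to germline gene promoters in mouse, had levels of 6.25, 6.28, 6.50 and 6.66 in the null clones, against 5.61 and 5.50 in the Dicer-carrying clones. All 4 null arrays were above both parents, as were those of 9.44% of all genes and 15.1% of genes with a mean above 4. E2f6 was named for the largest change in its list. The difference of E2f6 was 0.87 ± 0.14 (limma adjusted p of 0.0934). E2f6 lies on chromosome 12, whose median was 0.42. E2f4 had 0.72 ± 0.35 and Rb1 -0.81 ± 0.38.

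Germline genes reported to be silenced by promoter methylation had a median level of 2.70 over genes, and none of 16 measured had a mean above 4. Their median change was -0.02, and 0 passed in limma. S phase and mitosis genes, with which Dnmt1 and Uhrf1 transcripts are known to cycle, had medians of 0.18, -0.29, 0.01 and -0.09 in the 4 null clones. Over the 20 measured the median was -0.06, and 0 passed in limma. The largest values were 1.08 ± 0.31 for cyclin gene Ccne1, -0.72 ± 0.55 for Cdk1 and -0.28 ± 0.13 for Mki67. Of 18 reported miR-29 targets outside the 9 genes, Lamc1, a laminin chain, rose by 1.17 ± 0.12, at a limma adjusted p of 0.0436, or 0.119 without the parental block, and it did not pass in 12 of 15 alternatives. That is 1 of 18, and no target passed the threshold in the lower direction. The list had a median of -0.08, with 6 genes higher and 6 lower in all 4 null clones. The shares were 13.1% and 18.9% of all genes. They were 20% and 21.4% of genes with a mean above 4, as 16 of the 18 have. At an unadjusted p under 0.05 in limma, 4 of the 18 were higher and 5 lower. Of all genes 5.82% were higher and 7.9% lower at that level, and of genes with a mean above 4, 11.6% in each direction. The list thus moved both ways, and its median does not describe any 1 target. Whether loss of miR-29 acts on these genes was not tested.

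**Figure D4:**
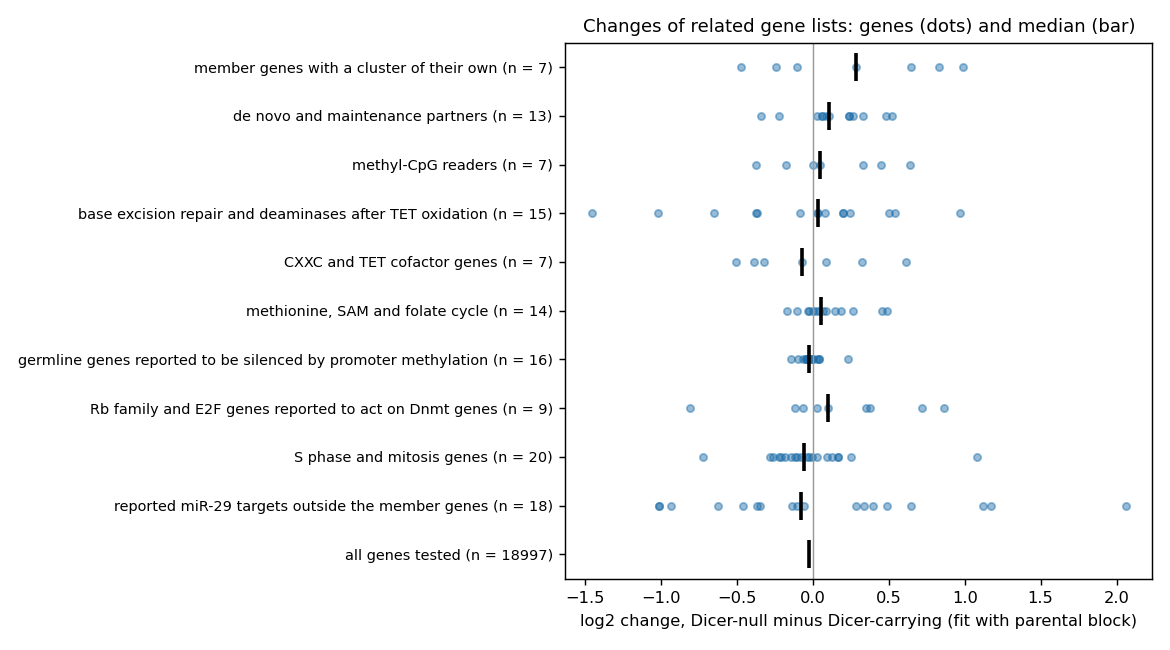
Log2 change from the fit (horizontal axis, Dicer-null minus Dicer-carrying) of each measured gene (dots) in the 7 DNA methylation genes and the 9 related lists, with the median as a bar. The bottom row shows the median of all genes tested, at -0.02, without dots. The related lists have medians between -0.08 and 0.11, and that of the 7 genes is 0.28.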

How the data were processed

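Log2 values for 44343 transcript clusters on 6 arrays were deposited by the authors. Per the submitters' processing notes, Partek 6.5 and RMA were used, with no role or order given. The array values ran from 1.80 to 14.1 with medians of 3.01 to 3.21, as RMA log2 values do, and such normalisation would hide a change in total RNA per cell. Their genome build was not given in the sources used here, and precision is limited by the number of arrays.

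Symbols came from the platform annotation, updated by Entrez identifier to GRCm38.p6 for 22485 of 22781 clusters with 1 gene. Another 2085 listed several genes and 19477 none. The test was limma 3.58.1 under R 4.3.3 on 3 residual degrees of freedom, with the parental line as a block because each null clone derives from a numbered parent. As a check of that pairing, the line difference in parents correlated with that in null clones at 0.16 over 5409 genes, which are not independent replicates. The within-line consensus correlation from limma, over all genes, came to -0.13, so the block rests on descent and not on these values. The fit was tested on simulated data. No label mentions repeat cultures of a clone, so clone, culture and array differences cannot be told apart in the spread behind each p-value. That spread is also moderated by limma over all genes.

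The 9 genes and the 13 lists of related genes and markers, 144 of 163 genes measured, were chosen with earlier results of these data known. From each list the text names members past the threshold (up to 4), or else the 3 largest changes with a mean above 4, and for each member with a mean above 6 the 3 genes most like it. Alternatives changed the block, cluster choice, filter, scaling, moderation and arrays. Levels are not compared between genes.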

Additional observations from a re-analysis of the deposited data

Results flagged for a closer look

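Dixon's 95% criterion, met by chance in about 1 of 20 groups, was applied to 47 groups of 4 null clones. In 2 of them a value stood apart, and none was of a DNA methylation gene. Haematopoietic markers had a median change of -0.11 in clone 12.4, below the other null clones. Pluripotent and germ cell markers had a median change of 0.035 in clone 6.9, above the others. Both lists had no member with a mean log2 level above 4.

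Repair and deaminase genes after TET oxidation had median changes of 0.20 and 0.08 in clones 12.2 and 12.4, and of -0.01 and -0.09 in clones 6.8 and 6.9. The lines were of opposite sign, 0.20 apart, a difference that was not tested.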

How the results depend on the processing

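None of the 7 DNA methylation genes passed the threshold in limma in any alternative run. The count over all genes was 112 with the parental line as a block. It was 220 with no replicate block, 15 with the mean of sibling clones, 233 with trend and robust moderation, and 0 to 17 when 1 array was left out. The lowest counts, 0 each, came without clone 6 or clone 12, which leaves a line without a parent, and the genes under an unadjusted p of 0.05 then numbered 1654 and 1493. The other 6 alternatives gave 91 to 149. Dnmt1 and Dnmt3l turned to 0.044 and 0.087 when arrays were centred on the chromosome, and Uhrf1 was at 0 without clone 12. Dnmt3l has no value with the dimmest genes left out, and Dnmt3b enters that run only through its null clones. Otherwise each gene kept its sign. The related lists gave 0 calls throughout, except that Lamc1 was lost in 12 of 15 alternatives. The causes of these shifts were not tested. With no replicate block the adjusted p in limma was 0.157 for Dnmt3b and 0.472 for Dnmt1.

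Dnmt3a, Dnmt3b and Tet2 had other sizes when a parent was left out, as the change then comes from the other line alone. For Dnmt3b it was 1.28 without clone 6 and 0.70 without clone 12. The level of Dnmt3b was 3.52 in clone 6 and 3.57 in clone 12. Its null clones had 4.23 and 4.21 in line 6, and 4.94 and 4.77 in line 12. The gap between lines thus lay mainly in the null clones for Dnmt3b. For Tet2 it lay mainly in the parents, at 5.22 in clone 6 and 4.36 in clone 12. Dnmt3l, the Tet1 cluster and, in the Dicer-carrying clones, Dnmt3b lie low on these arrays. No detection calls were used here, so none of them is called absent.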
